A study of Mus musculus with 8 samples.

Results

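The genes described here are those with the strongest clean rises in Brg1 cKO testis cells that fall outside several named gene families. They were chosen by the measured values themselves, in CPM, a gene's estimated count divided by its library total and multiplied by 1000000. A gene was selected when it averaged at least 2 CPM in Brg1 cKO, reached at least 1.8 times the Brg1 WT mean, and had every Brg1 cKO library above every Brg1 WT library. Of the 28460 genes in the table, 13147 reached 2 CPM in Brg1 cKO, 1079 of these (8.21%) had no overlap in the upward direction, and 47 of those reached the ratio. Leaving out 11 genes by symbol, among them collagens, channels, cadherins and Nefm, left 36 genes. Because the contrast of the genotypes chose them, their differences are given as a description, with no test.

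The 8 libraries were made from cells of testes at postnatal day 12, with 4 biological replicates from Brg1 cKO mice, which carry a conditional knockout of Brg1, and 4 from Brg1 WT mice. All mice had a mixed genetic background. The sources used here give neither the Cre driver, nor the deleted part of Brg1, nor whether animals were pooled. The cells had been released with collagenase and trypsin and passed through a sieve, and no marker was named for sorting them.

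Brg1, the product of Smarca4, is the ATPase of the SWI/SNF complex, which uses ATP to move or evict nucleosomes and so changes how easily transcription factors reach DNA. In the juvenile testis the first wave of germ cells is entering meiotic prophase inside tubules built by Sertoli cells, with peritubular, Leydig, vascular and immune cells around them. The 36 genes are no pathway: they encode secreted matrix proteins, hormone and growth factor receptors, neuronal membrane proteins, muscle and junction proteins and enzymes, and they share only the selection on their values.

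Smarca4 had 124.0, 120.4, 107.1 and 120.2 CPM in Brg1 cKO replicates 1 to 4, against 379.5, 368.2, 348.3 and 329.2 CPM in Brg1 WT replicates 1 to 4. Every Brg1 cKO library was thus below every Brg1 WT library for the targeted gene. Library totals ran from 20456743 to 32596038 estimated counts. Among the Brg1 WT libraries replicate 1 stood apart, as the highest of the 4 in CPM for 50.3% of the 16023 tested genes outside the group. This CPM used plain library totals, and the TMM scaling factors were 1.09 for Brg1 WT replicate 1 and 0.975 for Brg1 WT replicate 4. The part of scaling in that order was not tested. With Brg1 WT replicates 1 and 2 both left out, 24 of the 36 genes still met the selection. Mitochondrial transcripts took 7.42% to 9.45% of Brg1 cKO libraries and 6.47% to 9.57% of Brg1 WT libraries. All 20 germ cell markers passed the filter on low counts, and so did all 22 Sertoli, 18 peritubular and stromal, 14 Leydig and 12 endothelial markers, so the cells labelled spermatogenic also held somatic RNA. Summed germ cell markers had 1905 to 2464 CPM in Brg1 cKO and 2663 to 3729 CPM in Brg1 WT, with no overlap, while summed Sertoli markers had 7786 to 9978 CPM in Brg1 cKO and 6656 to 7882 CPM in Brg1 WT. In such bulk libraries, fewer cells of a type and less RNA per cell cannot be told apart, and the cells in which a rise described below took place were not tested.

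The 36 genes ranged from 1.81-fold to 4.11-fold higher mean CPM in Brg1 cKO, with a median of 2.0-fold, and 18 of them reached 2-fold. Their fitted log2 fold changes had a median of 1.07, beside a median of 0.01 over all 16059 genes tested. All 36 passed the filter on low counts, and edgeR's quasi-likelihood test called 33 of them higher, with Thbs1 and Lhfpl4 not called. Over the whole table that test called 20.6% of genes, 8.79% higher and 11.8% lower, and 7.05% of tested genes had every Brg1 cKO library above every Brg1 WT library. Nothing is read from the members' count, since the same contrast selected them. With plain library totals in place of TMM scaling, the split over the whole table was 812 higher and 2184 lower, against 1412 higher and 1900 lower. The same conditions turned downward were met by 419 genes, before any were left out by name.

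The rises were modest beside the spread for many members. The lowest Brg1 cKO library was at least 1.5 times the highest Brg1 WT library for 2 genes, Hrk (1.57 times) and Sez6 (1.51 times), and under 1.1 times for 3 genes, Clec3b, Prlr and Avpr1a, at 1.04, 1.06 and 1.07 times. Within a genotype, the median coefficient of variation over the members was 25.6% in Brg1 cKO and 21.3% in Brg1 WT. A mean under 10 CPM in Brg1 cKO was seen for 22 members, and 4 had under 20 estimated counts in some library, the lowest being 12 counts of Gm10800 in Brg1 WT replicate 1.

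**Figure D1:**
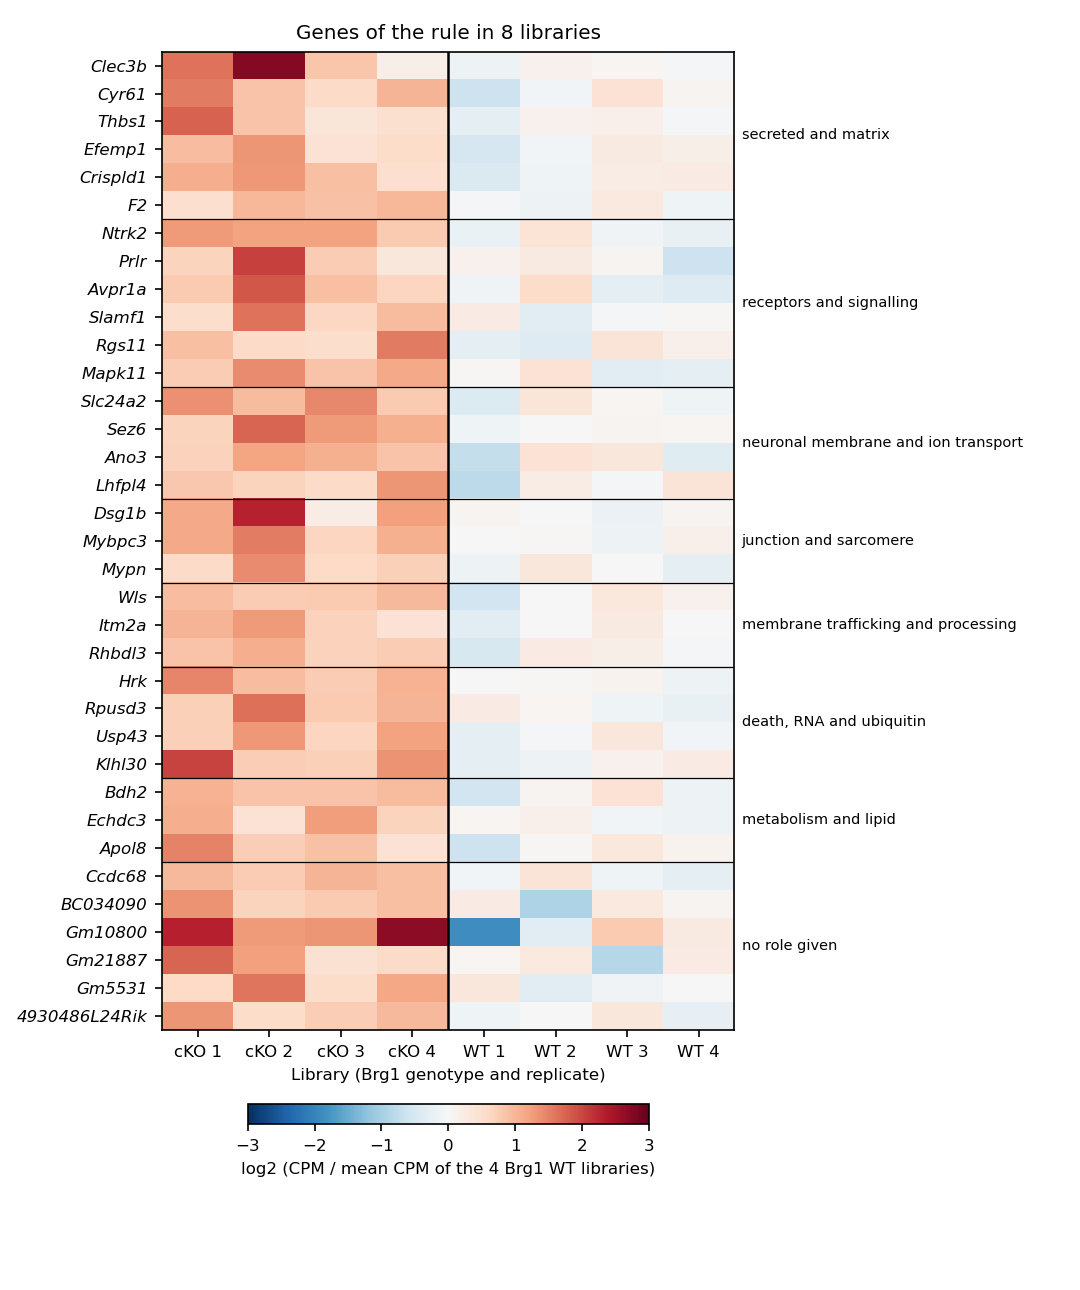
The genes (down, grouped by role; 1 of the 36 is not shown) in the 4 Brg1 cKO and the 4 Brg1 WT libraries (across), coloured by log2 of CPM over the Brg1 WT mean. Brg1 cKO replicate 2 holds the highest value for 18 genes, and the darkest single cells are Clec3b in that library at 26.9 CPM and Gm10800 in Brg1 cKO replicate 4 at 10.5 CPM.

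Secreted and matrix proteins made up 6 of the 36 genes, and 2 of them were abundant transcripts. Cyr61 encodes the matricellular protein CCN1, which binds integrins and is quickly induced by growth factors and mechanical strain. It had 977.5, 601.3, 497.5 and 677.2 CPM in Brg1 cKO replicates 1 to 4, against 215.4, 315.1, 452.2 and 350.8 CPM in Brg1 WT replicates 1 to 4. The lowest Brg1 cKO library was replicate 3, 1.1 times Brg1 WT replicate 3, and the lowest Brg1 WT value stood in replicate 1. The means were 688.4 ± 206.3 CPM in Brg1 cKO and 333.4 ± 97.8 CPM in Brg1 WT (SD, n = 4 each), with a ratio of 2.06 and a fitted log2 fold change of 1.11 ± 0.283 (SE). Thbs1, thrombospondin-1, a matrix glycoprotein that activates latent TGF-beta and inhibits angiogenesis, had 314.3, 166.5, 118.0 and 128.1 CPM in Brg1 cKO, against 74.9, 100.3, 102.0 and 89.7 CPM in Brg1 WT. Brg1 cKO replicate 1 stood far above the other libraries, and replicate 3 was only 1.16 times the highest Brg1 WT library.

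Clec3b, which encodes tetranectin, a plasminogen-binding C-type lectin of matrix and serum, had the largest ratio among genes with a standard symbol. It had 12.4, 26.9, 7.13 and 4.55 CPM in Brg1 cKO replicates 1 to 4, against 3.61, 4.35, 4.17 and 3.89 CPM in Brg1 WT replicates 1 to 4. The Brg1 WT libraries were tight, whereas the Brg1 cKO libraries spanned 5.93-fold, and replicate 4 was barely above Brg1 WT. The ratio of 3.19 became 2.01 without Brg1 cKO replicate 2. The other secreted proteins were Efemp1 (fibulin-3, 1.81-fold), Crispld1 (a cysteine-rich secretory protein with LCCL domains, 1.97-fold) and F2 (prothrombin, 1.81-fold). Of Crispld1's exonic bases 12.1% lie opposite another annotated gene.

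Receptors and signalling proteins numbered 6, at 1.93-fold to 2.2-fold. Ntrk2 encodes TrkB, the receptor tyrosine kinase for brain-derived neurotrophic factor and neurotrophin-4. Its level was 24.5, 23.5, 23.2 and 17.4 CPM in Brg1 cKO replicates 1 to 4, against 8.79, 13.5, 9.42 and 8.66 CPM in Brg1 WT replicates 1 to 4. The Brg1 cKO values lay close together, and Brg1 WT replicate 2 stood above the other Brg1 WT libraries. The fitted log2 fold change was 1.21 ± 0.172 (SE), among the smallest errors of the group.

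Prlr, the prolactin receptor, which signals through JAK2 and STAT5, had 8.82, 22.9, 9.5 and 7.07 CPM in Brg1 cKO, against 6.06, 6.7, 5.9 and 3.6 CPM in Brg1 WT. Avpr1a, the Gq-coupled V1a vasopressin receptor, had 1.71, 3.59, 1.86 and 1.56 CPM in Brg1 cKO, against 0.921, 1.46, 0.828 and 0.754 CPM in Brg1 WT. Slamf1, a self-binding receptor of immune cells, had 2.6, 5.58, 2.74 and 3.44 CPM in Brg1 cKO, against 2.12, 1.44, 1.75 and 1.83 CPM in Brg1 WT. All of these receptors peaked in Brg1 cKO replicate 2, and without that library the ratios were 1.52 for Prlr, 1.73 for Avpr1a and 1.64 for Slamf1, under the 1.8 of the selection. The p38 beta kinase gene Mapk11 had 3.75, 5.97, 3.99 and 4.88 CPM in Brg1 cKO, against 2.26, 3.02, 1.77 and 1.83 CPM in Brg1 WT. Rgs11, which speeds the GTPase of G protein alpha subunits, had 23.0, 18.2, 17.6 and 36.3 CPM in Brg1 cKO, against 10.1, 9.35, 16.0 and 13.7 CPM in Brg1 WT. Unlike the receptors, Rgs11 was highest in Brg1 cKO replicate 4.

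Membrane proteins best known from neurons numbered 4. Sez6 encodes a type I membrane protein of dendrites that is cut by the protease BACE1. It had 5.98, 12.6, 9.07 and 7.93 CPM in Brg1 cKO replicates 1 to 4, against 3.47, 3.73, 3.96 and 3.91 CPM in Brg1 WT replicates 1 to 4. The Brg1 WT libraries differed among themselves by only 1.14-fold, and every Brg1 cKO library lay well clear of them. The means were 8.89 ± 2.76 CPM in Brg1 cKO and 3.77 ± 0.221 CPM in Brg1 WT (SD, n = 4 each), with a fitted log2 fold change of 1.31 ± 0.214 (SE). Slc24a2, a potassium-dependent sodium-calcium exchanger, had 15.2, 11.5, 16.2 and 10.2 CPM in Brg1 cKO, against 4.46, 7.6, 6.2 and 5.44 CPM in Brg1 WT. Its highest library was Brg1 cKO replicate 3, where few of the 36 genes peaked. Ano3, an anoctamin family protein, was 1.95-fold higher, and Lhfpl4, a partner of GABA-A receptors at inhibitory synapses, 1.82-fold higher.

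**Figure D2:**
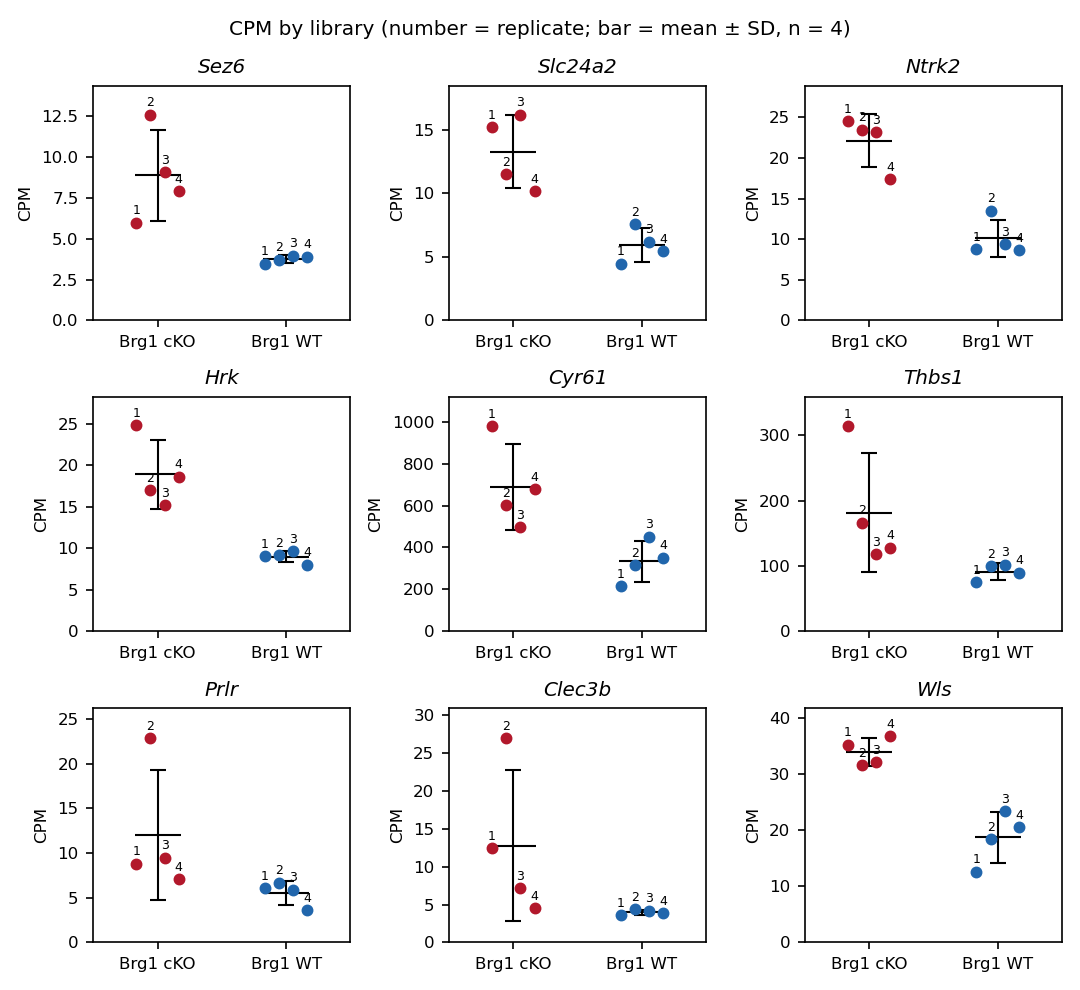
CPM of 9 of the genes by library (numbers are replicates; bars are the mean ± SD, n = 4), with Brg1 cKO left and Brg1 WT right in each panel. Hrk and Sez6 show the widest gaps between the genotypes, Clec3b and Prlr are highest in Brg1 cKO replicate 2 (26.9 and 22.9 CPM), Thbs1 in Brg1 cKO replicate 1 (314.3 CPM), and Wls is even in Brg1 cKO and spread in Brg1 WT (12.6 to 23.4 CPM).

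Junction and sarcomere proteins numbered 3, and all were highest in Brg1 cKO replicate 2. Dsg1b, a desmosomal cadherin, had 3.85, 8.69, 2.05 and 4.13 CPM in Brg1 cKO, against 1.86, 1.74, 1.55 and 1.86 CPM in Brg1 WT. This value is uncertain, since 60.03% of its 31-base words also occur in other genes, chiefly Dsg1a and Dsg1c, between which reads can be split. Mybpc3, the cardiac form of myosin-binding protein C, had 3.91, 5.17, 2.79 and 3.72 CPM in Brg1 cKO, against 1.77, 1.82, 1.6 and 1.98 CPM in Brg1 WT. Mypn, myopalladin, which anchors proteins at the sarcomeric Z-disc, had 3.56, 6.39, 3.64 and 3.91 CPM in Brg1 cKO, against 2.17, 3.05, 2.39 and 1.98 CPM in Brg1 WT. Without Brg1 cKO replicate 2 the ratios were 1.94 for Mybpc3 and 1.54 for Mypn.

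Genes of cell death, RNA handling and the ubiquitin system numbered 5. Hrk encodes harakiri, a BH3-only protein that promotes apoptosis by binding BCL2 and BCL-XL. It had 24.8, 17.0, 15.2 and 18.6 CPM in Brg1 cKO replicates 1 to 4, against 9.07, 9.17, 9.67 and 8.04 CPM in Brg1 WT replicates 1 to 4. Of the 36 genes it had the widest gap between genotypes relative to level and the smallest error, with means of 18.9 ± 4.14 CPM in Brg1 cKO and 8.99 ± 0.687 CPM in Brg1 WT (SD, n = 4 each) and a fitted log2 fold change of 1.15 ± 0.155 (SE). Rpusd3, which encodes a pseudouridine synthase domain protein of mitochondria, had 6.37, 12.2, 6.63 and 7.87 CPM in Brg1 cKO, against 4.61, 4.0, 3.53 and 3.33 CPM in Brg1 WT. Rpusd3 is uncertain, since 65.2% of its exonic bases lie opposite the annotated gene Gm44280 and the sources do not say whether strand was used in counting. Klhl30, a kelch-like protein, had 3.43, 1.4, 1.39 and 2.15 CPM in Brg1 cKO, against 0.7, 0.752, 0.92 and 0.992 CPM in Brg1 WT, and Usp43, a deubiquitinase, was 1.99-fold higher, with 12.8% of its exonic bases opposite another gene.

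Proteins of membrane trafficking and processing numbered 3. Wls carries lipid-modified Wnt ligands to the cell surface. It had 35.3, 31.6, 32.2 and 36.8 CPM in Brg1 cKO, against 12.6, 18.4, 23.4 and 20.6 CPM in Brg1 WT. The Brg1 cKO libraries differed by only 1.16-fold, and the spread lay in Brg1 WT, where replicate 1 was lowest. Itm2a, a type II membrane protein, had 26.8, 32.1, 21.4 and 17.7 CPM in Brg1 cKO, against 10.5, 13.1, 15.9 and 13.2 CPM in Brg1 WT, and the rhomboid-like protein gene Rhbdl3 was 1.81-fold higher. Of metabolic genes there were 3: Bdh2, a cytosolic hydroxybutyrate dehydrogenase (1.9-fold), Echdc3, an enoyl-CoA hydratase domain protein (1.86-fold), and Apol8, an apolipoprotein L gene (1.91-fold). None of the metabolic genes was highest in Brg1 cKO replicate 2.

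The 6 genes left have no role given here. BC034090 had 34.2, 21.5, 23.3 and 25.4 CPM in Brg1 cKO, against 15.9, 7.12, 16.5 and 14.3 CPM in Brg1 WT. Ccdc68 was 1.9-fold higher. Gm5531 was 2.06-fold higher, and 16.58% of its 31-base words also occur in other genes. The remaining provisional symbols are uncertain as well, because 41.99% of the 31-base words of Gm10800 (4.11-fold), 62.0% of those of Gm21887 (2.15-fold) and 88.45% of those of 4930486L24Rik (1.9-fold) also occur in other genes. In all, 8 of the 36 genes shared over 10% of their exonic bases or 31-base words with another gene.

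The threshold of 1.8 cuts through a continuum. Just inside it stood Efemp1 at 1.807, F2 at 1.81 and Wls at 1.811. Just outside stood Aldh3b1 at 1.786, Nfil3 at 1.781 and Osgin1 at 1.773, which met every other condition. Nfil3, a bZIP transcription factor, had 38.4 to 73.0 CPM in Brg1 cKO and 25.8 to 33.8 CPM in Brg1 WT.

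The selection named no order of libraries inside a genotype, but it used the same values. A mean ratio can favour genes with a single high Brg1 cKO library or a single low Brg1 WT library. The 36 genes were uneven in that order, and their shares are only a description, since the other tested genes were not selected. All shares use CPM from plain library totals, without TMM factors. Brg1 cKO replicate 2 was the highest Brg1 cKO library for 18 of the 36 genes and replicate 1 for 11 (30.6%), while replicates 3 and 4 led for 3 (8.33%) and 4 (11.1%). Over the 16023 other tested genes the shares were 30.7% for replicate 2, 15.5% for replicate 1, 23.4% for replicate 3 and 30.3% for replicate 4. The lowest Brg1 cKO library was replicate 3 for 13 genes (36.1%), against 24.1% of other genes. In Brg1 WT, replicate 1 was lowest for 17 of the 36 genes (47.2%), against 19.0% of other genes. By role, Brg1 cKO replicate 2 led for 3 of 3 junction and sarcomere genes, 4 of 6 receptors and signalling genes, 4 of 6 secreted and matrix genes, 2 of 3 trafficking genes, 2 of 4 neuronal genes, 2 of 5 genes of death, RNA and ubiquitin, 0 of 3 metabolic genes and 1 of 6 with no role given. A difference between roles was not tested. Without replicate 2, 26 of the 36 genes kept a ratio of at least 1.8.

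**Figure D3:**
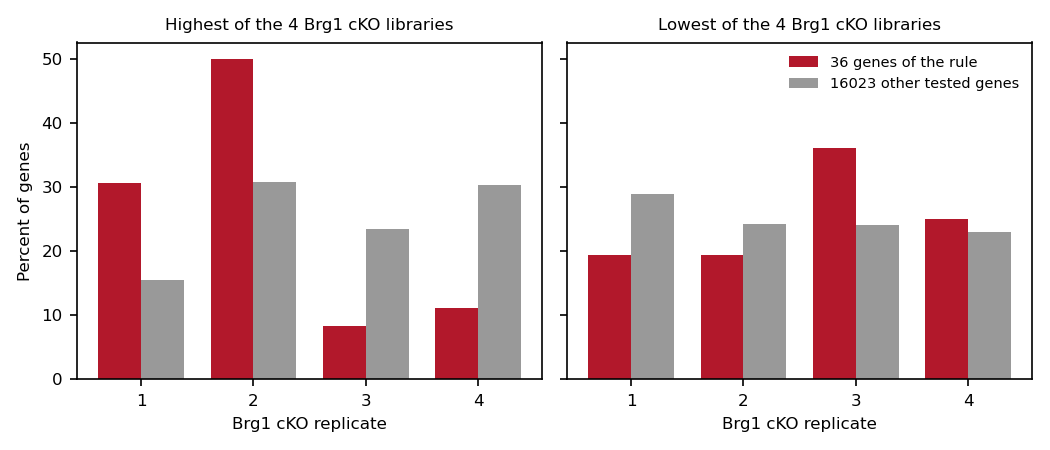
Share of genes (percent) for which each Brg1 cKO replicate is the highest (left) or the lowest (right) of the 4 Brg1 cKO libraries, for the 36 genes (red) and the 16023 other tested genes (grey). Replicate 2 leads for 18 of the 36 genes and 30.7% of the others, and replicate 4 for 11.1% and 30.3%.

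Summed cell type markers also differed between libraries of a genotype, in more than 1 pattern. Within Brg1 cKO, germ cell (2464 CPM), rete (99.6 CPM) and mesothelial markers (41.7 CPM) were highest in replicate 2, where Sertoli markers were lowest (7786 CPM). Leydig markers were highest in Brg1 cKO replicate 3 (477.5 CPM). Summed endothelial markers (12 of 12 tested, none called) were highest in Brg1 cKO replicate 2, with 190.8 to 458.8 CPM in Brg1 cKO and 201.1 to 300.8 CPM in Brg1 WT. Erythroid markers were also highest there, with 8.77 to 97.2 CPM in Brg1 cKO and 10.1 to 29.7 CPM in Brg1 WT. Peritubular and stromal markers (18 of 18 tested, 3 higher and 1 lower) had 2625 CPM in Brg1 cKO replicate 4, where Clec3b and Prlr were lowest, and 4049 to 4094 CPM in the other Brg1 cKO libraries, against 2011 to 3260 CPM in Brg1 WT, with replicate 1 lowest. One of those higher, Pdgfra (1.95-fold), met the selection's conditions on values and was left out of the 36 genes only by name. The 3 higher became 9 when Brg1 cKO replicate 4 was dropped, 2 for Brg1 WT replicate 3 and 1 for any other library, and DESeq2 called 6 higher. Dropping Brg1 WT replicates 1 and 2 together left none higher by edgeR, with 1 at an unadjusted p under 0.05. Macrophage markers (16 tested, none called) reached 278.5 CPM in Brg1 cKO replicate 1, against 127.7 to 154.4 CPM in the other Brg1 cKO libraries and 127.2 to 188.5 CPM in Brg1 WT. Of 22 Sertoli markers 9 were called higher and 1 lower, but only 3 higher when Brg1 WT replicate 1 or 2 was dropped, 2 when both were, and 5 when Brg1 cKO replicate 1 or 3 was. At an unadjusted p under 0.05 by edgeR, 11 to 14 Sertoli markers were higher without 1 library, and 8 without that pair. The part of these shifts in the rises of the 36 genes was not tested.

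Leydig markers (14 of 14 tested, 3 higher) had 410.7 to 477.5 CPM in Brg1 cKO and 392.2 to 417.4 CPM in Brg1 WT. The Leydig count was 6 when Brg1 cKO replicate 4 was dropped, 1 for Brg1 cKO replicate 1 or Brg1 WT replicate 2, and 0 by edgeR for Brg1 WT replicates 1 and 2 together, where 3 were higher at an unadjusted p under 0.05. Schwann cell markers (7 tested, 2 lower) had 79.7 to 91.4 CPM in Brg1 cKO and 78.5 to 82.1 CPM in Brg1 WT, and adipocyte markers 8.17 to 9.69 CPM in Brg1 cKO and 8.03 to 9.3 CPM in Brg1 WT. Of 5 mast and lymphoid markers tested 2 were lower, and the summed list had 59.6 to 89.7 CPM in Brg1 cKO and 124.4 to 147.9 CPM in Brg1 WT. That list includes the germ cell gene Kit, and in it Cpa3, Cma1, Tpsb2, Mcpt4 and Ms4a1 had under 3 counts in every library. Mesothelial markers had 28.8 to 41.7 CPM in Brg1 cKO and 39.2 to 48.2 CPM in Brg1 WT, and rete and epididymal markers 67.9 to 99.6 CPM in Brg1 cKO and 106.1 to 113.5 CPM in Brg1 WT. The summed mast and lymphoid list and the summed rete list did not overlap between the genotypes. Of the 6 rete and epididymal genes tested, however, edgeR called none, and 3 were lower at an unadjusted p under 0.05. In that list Crisp1 and Lcn5 had under 3 counts in every library.

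Genes that act with the members were then read from the fit over all genes, with the members themselves left out. For Cyr61, the list held YAP, TEAD, their regulators and target genes, since Cyr61 is a textbook target of these factors. Of 14 tested, 5 were higher and none lower in Brg1 cKO, beside 8.79% of all tested genes higher, with a list median log2 fold change of 0.29. Axl, a receptor tyrosine kinase, averaged 455.0 ± 43.2 CPM in Brg1 cKO and 317.1 ± 15.1 CPM in Brg1 WT (SD, n = 4 each), with a fitted change of 0.59 ± 0.092 on the log2 scale (SE) and an adjusted p = 0.0046. Amotl1, which binds YAP, averaged 59.3 ± 4.02 CPM in Brg1 cKO and 36.3 ± 5.61 CPM in Brg1 WT (0.77 ± 0.13 on the log2 scale, adjusted p = 0.0058). Yap1 itself had 226.9, 196.8, 199.3 and 210.2 CPM in Brg1 cKO, against 164.1, 156.3, 167.9 and 167.3 CPM in Brg1 WT (0.42 ± 0.0727, adjusted p = 0.0067). Tead1 and Lats1 were the other calls. The close relative Ctgf had 466.9, 312.1, 319.8 and 199.2 CPM in Brg1 cKO, against 226.5, 417.4, 293.4 and 189.6 CPM in Brg1 WT, with overlap and no call (adjusted p = 0.54), and was chosen after its values were seen. The count was 4 or 5 when any library was left out, and 1 without Brg1 WT replicates 1 and 2 together.

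Promoter sequence was looked up for the members in RefSeq's table for GRCm38.p6, which held 23 of the 36 (63.9%). Under 80% were matched, so a comparison of the group with other genes is void and none is drawn. The core of the TEAD site, GGAATG on either strand, a motif chosen after the members were seen, lay in the 300-base windows of 6 of the 23, and in those of 13.2% of the 16889 genes of the table that have one. The TATA box, TATAAA on either strand, lay in those of 3 of the 23 and of 2197 of the 16889. With under 80% of the members matched, neither motif is read as more frequent in the group. The 3 windows shown belong to the abundant Cyr61, to Hrk, which had the widest gap, and to Mypn, which peaked in a single library. All 3 hold GGAATG, which most of the 23 windows lack, so they do not stand for the members' promoters. Each line gives the 250 bases before the start site on the gene's own strand, with matches to GGAATG (or its complement CATTCC) and TATAAA (or TTTATA) in capitals. The coordinates are chr3:145649986-145650235 on the minus strand for Cyr61, chr5:118169514-118169763 on the plus strand for Hrk and chr10:63203953-63204202 on the minus strand for Mypn.
Cyr61: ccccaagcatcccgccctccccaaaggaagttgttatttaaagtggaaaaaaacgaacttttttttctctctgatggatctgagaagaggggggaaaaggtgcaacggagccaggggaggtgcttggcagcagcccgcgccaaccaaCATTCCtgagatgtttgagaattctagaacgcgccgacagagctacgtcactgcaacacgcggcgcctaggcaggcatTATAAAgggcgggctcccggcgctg
Hrk: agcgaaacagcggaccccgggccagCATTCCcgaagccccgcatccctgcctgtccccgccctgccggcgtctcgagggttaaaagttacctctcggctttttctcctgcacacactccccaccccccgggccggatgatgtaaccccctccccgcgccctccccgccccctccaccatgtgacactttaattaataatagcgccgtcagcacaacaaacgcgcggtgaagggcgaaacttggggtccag
Mypn: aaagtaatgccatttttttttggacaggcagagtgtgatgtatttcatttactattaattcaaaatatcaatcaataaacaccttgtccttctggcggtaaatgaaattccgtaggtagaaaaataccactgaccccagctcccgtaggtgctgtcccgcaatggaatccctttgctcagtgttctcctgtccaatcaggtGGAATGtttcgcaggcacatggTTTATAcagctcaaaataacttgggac

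In Cyr61 the TATA match begins at -25 and the GGAATG match at -103, counted from the start site. In Mypn they begin at -27 and -49, but the TATA match there is TTTATA, which reads TATAAA only on the opposite strand. In Hrk the GGAATG match begins at -225 with no TATAAA in the window. These matches are letters in a window and say nothing of binding in these cells. The files' build is named as mm9 in the submitters' processing notes, and the coordinates here are those of the RefSeq table.

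Cyr61 and Thbs1 encode matricellular proteins. Of 20 other matricellular genes 2 were higher and 3 lower, beside 8.79% higher and 11.8% lower over all tested genes, with a median of 0.31 on the log2 scale. Without Brg1 cKO replicate 4 there were 4 higher and 1 lower, without Brg1 cKO replicate 1 or 3 or Brg1 WT replicate 1 or 2 there was 1 each way, and with Brg1 WT replicate 3 or 4 dropped there were 3 higher and 1 lower, or 1 higher and 2 lower. Sparc, a collagen-binding matricellular protein, was higher (0.61 ± 0.117, adjusted p = 0.0095). Of the 3 relatives of Thbs1 that were tested, 2 were lower. Thbs4 averaged 0.632 ± 0.363 CPM in Brg1 cKO and 1.99 ± 0.181 CPM in Brg1 WT, a fitted change of -1.57 ± 0.37 (SE) on the log2 scale (adjusted p = 0.019), and Thbs3 averaged 11.5 ± 3.0 CPM in Brg1 cKO and 19.5 ± 3.53 CPM in Brg1 WT (-0.68 ± 0.18, adjusted p = 0.029). The call of Thbs3 was lost without Brg1 cKO replicate 1, 3 or 4 or Brg1 WT replicate 1, 2 or 3, at -0.69 to -0.57. Thbs2, with 25.0 ± 6.55 CPM in Brg1 cKO and 17.8 ± 5.73 CPM in Brg1 WT, was not called (adjusted p = 0.22) and was chosen after its values were seen.

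Of 17 genes of elastic fibres and lysyl oxidases, 6 were higher and none lower, with a median of 0.41. Ltbp1, which stores latent TGF-beta in the matrix, averaged 79.8 ± 7.25 CPM in Brg1 cKO and 59.0 ± 4.72 CPM in Brg1 WT (log2 fold change 0.51 ± 0.0865 SE, adjusted p = 0.006), and its call held in every fit that left out 1 library. The list's count was less firm, falling to 1 when Brg1 cKO replicate 1 was dropped, to 2 for Brg1 cKO replicate 2 or Brg1 WT replicate 3, and to 3 for Brg1 cKO replicate 3 or Brg1 WT replicate 1, 2 or 4. It was 1 without Brg1 WT replicates 1 and 2 together. At an unadjusted p under 0.05 by edgeR, 6 to 8 of the list were higher and none lower in every fit without 1 library. Of 38 matrix proteases and inhibitors 8 were higher and 2 lower, with Adamts9, Adamts6 and Adamts14 at 0.47, 0.69 and 0.60 on the log2 scale (adjusted p = 0.013, 0.016 and 0.017). Leaving out Brg1 cKO replicate 1 turned the 8 into 2 and ended the call of Adamts6 (0.62). Leaving out Brg1 cKO replicate 3 turned the 8 into 4, and leaving out Brg1 WT replicate 2 turned them into 5. With Brg1 WT replicates 1 and 2 both left out edgeR called none, and 12 were higher at an unadjusted p under 0.05. Small leucine-rich proteoglycans gave no call by edgeR among 13 genes, although 2 had an unadjusted p under 0.05, in the upward direction, and DESeq2 called 1.

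**Figure D4:**
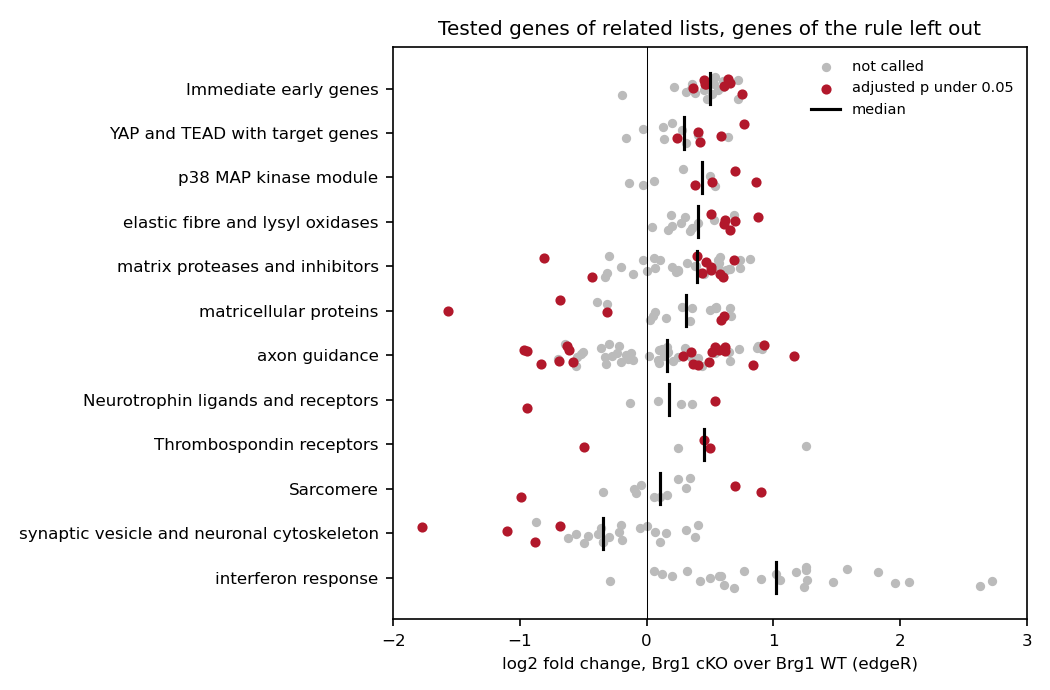
Fitted log2 fold change, Brg1 cKO over Brg1 WT, of the tested genes of 12 lists related to the 36 genes, which are themselves left out; red points passed an adjusted p of 0.05 and black bars are medians. Immediate early genes have a median of 0.50 with 9 of 24 called higher, and synaptic genes one of -0.34 with 4 of 25 called lower.

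Cyr61 is also an immediate early gene, one of those transcribed within minutes of a stimulus. Of 24 others, 9 were higher and none lower, at a median of 0.50. Fos averaged 1049 ± 108.1 CPM in Brg1 cKO and 703.2 ± 120.5 CPM in Brg1 WT (SD, n = 4 each; 0.64 ± 0.153 SE, adjusted p = 0.02). Ier2 and Jund were higher by 0.61 and 0.37 on the log2 scale (adjusted p = 0.017 and 0.021). Brg1 WT replicate 1 had the lowest Fos, Ier2 and Cyr61 of all libraries. The number called changed with single libraries: the 9 became 1 when Brg1 cKO replicate 1 was dropped, 4 when Brg1 cKO replicate 3 was, 5 when Brg1 WT replicate 1 was and 0 when Brg1 WT replicate 2 was. In that last fit 16 had an unadjusted p under 0.05 by edgeR and all 16 were higher. Over all fits without 1 library, 12 to 16 were higher at an unadjusted p under 0.05, at medians of 0.38 to 0.58. Calls over the whole table fell too, from 3312 to 1608 without Brg1 cKO replicate 1 and to 1777 without Brg1 WT replicate 2. Dropping Brg1 WT replicates 1 and 2 together also left none called by edgeR, and 11 were then higher at an unadjusted p under 0.05.

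The partners of the receptors gave few calls, in both directions. Of 6 other neurotrophin ligands and receptors, Ntrk3, the receptor TrkC, was lower, with 0.967, 1.36, 1.08 and 1.16 CPM in Brg1 cKO, against 2.18, 2.3, 2.52 and 2.26 CPM in Brg1 WT (-0.94 ± 0.187, adjusted p = 0.011). Ntrk2 and its relative therefore stood on opposite sides of Brg1 WT, without overlap in either. Ntf5, neurotrophin-4, a ligand of Ntrk2, was higher, with 8.7 ± 1.28 CPM in Brg1 cKO and 6.27 ± 0.57 CPM in Brg1 WT (0.54 ± 0.15, adjusted p = 0.033), a call lost without Brg1 cKO replicate 1 or 4 or Brg1 WT replicate 1, 2 or 3, at 0.47 to 0.60. Of 8 prolactin signalling genes, Stat5b was higher (0.35 ± 0.0876, adjusted p = 0.023), a call lost without Brg1 cKO replicate 1 or 3 or Brg1 WT replicate 2, at 0.34 each. Of 5 vasopressin signalling genes, Gna11 was lower (-0.24 ± 0.0531, adjusted p = 0.016; -0.21 and -0.22 and not called without Brg1 cKO replicate 1 or Brg1 WT replicate 2), and the Gq subunit gene Gnaq was higher by 0.29 with Plcb1 higher by 0.54. Gnaq lost its call, at 0.23 to 0.32, when any library but Brg1 cKO replicate 2 or Brg1 WT replicate 4 was left out, and Plcb1, at 0.46 to 0.59, when any but Brg1 cKO replicate 3 was.

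In a list of thrombospondin receptors and scavenger receptors, 2 of 5 were higher and 1 lower. Lrp1, an endocytic receptor, averaged 455.3 ± 33.8 CPM in Brg1 cKO and 350.9 ± 22.5 CPM in Brg1 WT (0.45 ± 0.0879, adjusted p = 0.01). Scarb2 was higher by 0.50 and lost its call, at 0.42 to 0.55, when Brg1 cKO replicate 1, 3 or 4 or Brg1 WT replicate 1 or 2 was left out. Stab2 was lower (-0.49) and lost its call, at -0.52 to -0.42, when any library but Brg1 cKO replicates 2 and 4 was left out. Of the 10 p38 module genes beside Mapk11, 4 were higher and none lower, with Mapk13, p38 delta, at 19.9 ± 2.49 CPM in Brg1 cKO and 12.9 ± 1.66 CPM in Brg1 WT (0.70 ± 0.121, adjusted p = 0.0063). Leaving out Brg1 WT replicate 1 left 1 of the p38 calls, and leaving out Brg1 WT replicate 2 or Brg1 cKO replicate 1 left 2.

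Of 25 genes of synaptic vesicles and the neuronal cytoskeleton none was higher by edgeR (1 at an unadjusted p under 0.05, and none by DESeq2) and 4 were lower (16.0%, beside 11.8% of all tested genes), at a median of -0.34. Syn2, a synaptic vesicle protein, averaged 5.04 ± 0.49 CPM in Brg1 cKO and 11.4 ± 1.11 CPM in Brg1 WT (-1.1 ± 0.117, adjusted p = 0.0012), and Elavl3, a neuronal RNA-binding protein, averaged 6.23 ± 0.52 CPM in Brg1 cKO and 22.6 ± 8.82 CPM in Brg1 WT (-1.77 ± 0.209, adjusted p = 0.0019). Of 66 axon guidance genes 13 were higher (19.7%, beside 8.79% of all tested genes) and 7 lower (10.6%, beside 11.8%), with Plxnc1 (0.62) and Plxna3 (0.54) higher and Efnb3 (-0.94) lower (adjusted p = 0.0034, 0.0055 and 0.0014). The 13 became 3 when Brg1 cKO replicate 1 was dropped, 4 for Brg1 WT replicate 1 or 2, 7 for Brg1 cKO replicate 3 and 8 for Brg1 WT replicate 4. Of 13 sarcomere genes beside Mypn, Ttn, titin, was lower, with 7.82 ± 1.16 CPM in Brg1 cKO and 16.4 ± 3.55 CPM in Brg1 WT (-0.99 ± 0.162, adjusted p = 0.0053). Myoz2 and Myoz1, Z-disc proteins, were higher by 0.70 and 0.90 on the log2 scale, but the call of Myoz2 was lost, at 0.60 to 0.70, when Brg1 cKO replicate 1 or 4 or Brg1 WT replicate 1, 3 or 4 was left out, and that of Myoz1, at 0.73 to 0.95, when any library but Brg1 WT replicate 2 was. Of 9 desmosomal genes beside Dsg1b, 1 was higher and 1 lower. The plakin Evpl was lower, with 7.36 ± 1.22 CPM in Brg1 cKO and 20.1 ± 2.74 CPM in Brg1 WT (-1.37 ± 0.134, adjusted p = 7.8e-04). Dsc2 was higher, with 1.83 ± 0.291 CPM in Brg1 cKO and 0.976 ± 0.35 CPM in Brg1 WT (0.96 ± 0.29, adjusted p = 0.044). The call of Dsc2 was lost, at 0.76 to 1.02, when any library but Brg1 WT replicate 3 was left out.

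Family relatives gave the same mixed picture. Among the members' symbol families, 94 other symbols shared a stem with a member, 64 were tested, and 9 were higher and 7 lower (14.1% higher, beside 8.79% of all tested genes), at a median of 0.13. Within the anoctamins, Ano6, a phospholipid scramblase, was higher with 81.5 ± 10.9 CPM in Brg1 cKO and 59.4 ± 3.67 CPM in Brg1 WT (0.53 ± 0.104, adjusted p = 0.01), while Ano1, a calcium-gated chloride channel, was lower with 16.0 ± 3.82 CPM in Brg1 cKO and 37.7 ± 8.53 CPM in Brg1 WT (-1.15 ± 0.191, adjusted p = 0.0057). Rpusd2, a relative of Rpusd3, was lower (-0.60 ± 0.123, adjusted p = 0.012). The 16 calls among relatives became 7 when Brg1 cKO replicate 3 was dropped, 8 for Brg1 WT replicate 2, and 10 for Brg1 cKO replicate 1 or Brg1 WT replicate 1 or 3.

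By position, the 36 genes lay on 14 chromosomes. Chromosomes 1 and 2 each held 6 of them (16.7% each), against 5.68% and 8.08% of the other tested genes.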

How the data were processed

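The values used are estimated counts per gene symbol, not scaled for depth or length, which the authors deposited after quantifying reads with kallisto 0.42.5, per the submitters' processing notes, which also name mm9 and edgeR. The labels' protocols name a stranded mRNA library kit. Genotypes and replicate numbers came from the sample titles. Of all values 49.6% were not whole, and counts were rounded for every test.

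The members, the lists and the alternatives were chosen with earlier results of these data known. The lists of partner genes and the GGAATG and CArG motifs were added once the members had been seen. Of the members 1 counts in all totals but is not reported here by itself, and neither is its list of partners. Members were found on CPM from plain column sums. The fit used edgeR 4.0.16 (R 4.3.3): filterByExpr by genotype, TMM, a robust quasi-likelihood test over 16059 genes with genotype as the term, and Benjamini-Hochberg adjustment with a threshold of 0.05. "Called", "higher" and "lower" of a list's genes refer to this test, and a value given after ± beside a log2 value is its SE, the absolute log2 fold change over the square root of F. The procedure was tested on simulated data. Relatives of a member share the letters of its symbol before the first digit.

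Genes named were the 15 largest ratios and the 10 highest mean CPM among members with standard symbols (CPM also reflects transcript length), the members next to the threshold, those with a library far from the others, members with a known role, and up to 3 called genes of a list with the smallest adjusted p. Shared exons and 31-base words came from a GRCm38 gene annotation matched by symbol, since the annotation behind the counts is not given.

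Alternatives were DESeq2 1.42.0, voom of limma 3.58.1, other scalings and filters, the replicate number as a block, and leaving out each library. The fit without Brg1 WT replicates 1 and 2, which earlier results of these data set apart, was added after seeing the data. Same-numbered libraries were not paired, their deviations correlating at -0.2064, 0.1269, -0.3678 and 0.1519. Replicates were checked for duplicate deposits, and chi-square over its degrees of freedom was at least 20.2 for every pair. P-values measure the spread between these libraries, which the design text calls biological replicates.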

Additional observations from a re-analysis of the deposited data

Results flagged for a closer look

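Of 184 groups of 4 libraries examined, for the 36 genes and 56 named genes of the related lists, 6 held a library far from the other 3, and chance gives about 1 in 20. For the 36 genes it was 4 of 72 groups. Avpr1a had 3.59 CPM in Brg1 cKO replicate 2, where the remaining Brg1 cKO libraries had 1.56 to 1.86 CPM. Prlr had 22.9 CPM in Brg1 cKO replicate 2, with 7.07 to 9.5 CPM in the others, and Mypn had 6.39 CPM there, with 3.56 to 3.91 CPM in the others. The remaining values stood in Brg1 WT replicate 2, where Ntrk2 had 13.5 CPM (8.66 to 9.42 CPM in replicates 1, 3 and 4), Sez6l, a relative of Sez6, had 1.46 CPM (0.811 to 0.912 CPM) and the keratin gene Krt17 had 1.26 CPM (0.491 to 0.553 CPM).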

How the results depend on the processing

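The median log2 fold change of the 36 genes stayed at 1.0 to 1.16 in all 17 other fits, and none of 612 refitted values of single members moved by more than the spread between replicates or changed sign. The selection asked for no overlap between the genotypes, so a change of sign was all but excluded beforehand and the direction was not tested by these fits. The spread was each gene's own and included the library left out, so a move beyond it was unlikely beforehand as well. Prlr counted as unmoved, although its ratio of 2.17 was 1.52 without Brg1 cKO replicate 2. The 56 named list genes had been picked among called ones. Of their 948 refitted values none changed sign and 190 lost their call, 42 of them without Brg1 WT replicates 1 and 2. Membership changed with the settings. RLE scaling gave 61 genes, with all 36 kept, a ratio of 2 gave 18, a ratio of 1.5 gave 141, a mean of 5 CPM gave 21, leaving out 1 library gave 33 to 120, and leaving out Brg1 WT replicates 1 and 2 gave 72, of which 24 were among the 36. Genes called over the whole table numbered 3312, with 1914 under a replicate block, 1608 to 3477 with 1 library left out and 438 without Brg1 WT replicates 1 and 2. Among relatives the 16 calls became 26 by DESeq2, 10 under the replicate block, 7 to 17 with 1 library left out and 2 without Brg1 WT replicates 1 and 2. The 57 calls of the 12 functional lists became 25 to 62 with 1 library left out and 14 without that pair. The replicate block left 1 immediate early gene called where 9 had been, and Brg1 cKO replicates 1 and 3 each correlated best with a Brg1 WT library of another number. The cause of these changes was not tested. Low counts limit the precision of members near 2 CPM.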

Other observations

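Insulin-like growth factor genes, a further secreted system of the testis, moved both ways. Of 12 tested, edgeR called 3 higher and 1 lower, or 6 higher and 1 lower when Brg1 cKO replicate 4 was left out. Insr, the insulin receptor, averaged 57.8 ± 2.33 CPM in Brg1 cKO and 41.8 ± 1.88 CPM in Brg1 WT (SD, n = 4 each; adjusted p = 0.0023), and Igfbp6, a binding protein of IGF2, averaged 56.5 ± 4.54 CPM in Brg1 cKO and 36.9 ± 4.7 CPM in Brg1 WT (adjusted p = 0.0073). Igfbp2 went the other way, with 20.7 ± 3.12 CPM in Brg1 cKO and 41.0 ± 5.25 CPM in Brg1 WT (adjusted p = 0.0023). The calls of Insr, Igfbp6 and Igfbp2 held in every fit, those without 1 library and without Brg1 WT replicates 1 and 2 included.

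Interferon response genes showed a large median with no call. Over 27 tested genes the median log2 fold change was 1.02, yet edgeR called none, 1 was higher at an unadjusted p under 0.05 and DESeq2 called none. Without Brg1 cKO replicate 1 the median was -0.12 and 2 were lower at an unadjusted p under 0.05. Ifit1, chosen after its values were seen, had 21.7, 0.858, 0.406 and 4.3 CPM in Brg1 cKO replicates 1 to 4, against 0.695, 1.68, 5.01 and 2.08 CPM in Brg1 WT replicates 1 to 4. Chemokines likewise gave no call by edgeR among 18, although 4 had an unadjusted p under 0.05, 3 of them higher, and DESeq2 called 1. Among 13 keratins, most at very low levels, 1 was higher and 4 lower. The 4 became 2 without Brg1 cKO replicate 3 and 1 without Brg1 WT replicates 1 and 2 together, and of the 3 that reached 1 CPM in 4 libraries edgeR called none (1 lower at an unadjusted p under 0.05). Krt17 was among the lower ones, with 0.0695 ± 0.0294 CPM in Brg1 cKO and 0.703 ± 0.375 CPM in Brg1 WT (SD, n = 4 each; adjusted p = 0.005). Of 11 C-type lectin domain genes beside Clec3b, Clec12b was called higher (0.30 on the log2 scale, adjusted p = 0.026), a call lost without Brg1 cKO replicate 1 or 3 or Brg1 WT replicate 2 or 3, at 0.24 to 0.29, and with plain library totals, at 0.22.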
